A study of Mus musculus with 15 samples.

Results

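The 10 genes described here are those of hepcidin and of iron handling in the liver: the hepcidin copies Hamp and Hamp2, Bmp6, Hfe and Tfr2, which act above hepcidin, the BMP-SMAD targets Id1 and Smad7, and Tfrc, Trf and Fth1, which carry and store iron. They were chosen by symbol from the count table, and all 10 of the 10 were among the 15302 genes listed and among the 12274 that passed the filter on low counts. RNA was sequenced from the livers of 15 wild-type mice that had been on a diet for metabolic dysfunction-associated steatohepatitis (MASH) and in warm housing of about 29°C from 8 weeks of age. The 5 animals labelled Vehicle were the controls. The 5 labelled GDF15 received recombinant GDF15, a hormone that lowers food intake, under the skin at 1 nmol/kg once a day, and the 5 labelled PairFed ate only as much as the GDF15 animals had taken in on the previous day. All animals were single-housed, so the diet, the warm housing and the housing alone were shared by the controls. The length of treatment is not given in the sources used here.

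Hepcidin is a small peptide hormone that hepatocytes secrete. It binds ferroportin, the iron exporter of gut cells and macrophages, and so lowers iron in the blood. When liver iron is high, endothelial cells release BMP6, and BMP receptors on hepatocytes, helped by hemojuvelin, HFE and transferrin receptor 2, signal through SMAD proteins to raise Hamp together with Id1 and Smad7. Interleukin 6 raises Hamp through STAT3. Mice carry a second gene, Hamp2, whose peptide has not been found to act on iron as hepcidin does. Within cells, iron regulatory proteins bind iron-responsive elements, short hairpins of RNA: when iron is scarce they stabilise the Tfrc transcript and hold back translation of ferritin.

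The genes Hamp and Hamp2 stand on the same strand of chromosome 7, Hamp2 at 30922372 to 30924181 and Hamp at 30942368 to 30944029 of GRCm38.p6, with 18186 bases between them. Their promoters are shown because Hamp2 passed the test with GDF15 here and Hamp did not. The sequences are RefSeq's, chr7:30944030-30944279 for Hamp and chr7:30924182-30924431 for Hamp2, minus strand, the 250 bases before each start. Capitals mark 2 places. The first is the GGCGCC that is known as the core of a BMP response element in the hepcidin promoter, or the bases of Hamp2 aligned with it. The second is TTCTTGGAA, the STAT3 site.
Hamp: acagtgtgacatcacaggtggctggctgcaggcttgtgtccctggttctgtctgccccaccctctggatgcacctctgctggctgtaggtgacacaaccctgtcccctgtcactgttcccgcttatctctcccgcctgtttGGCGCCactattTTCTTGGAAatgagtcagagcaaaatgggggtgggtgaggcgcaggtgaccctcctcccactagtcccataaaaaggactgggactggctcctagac
Hamp2: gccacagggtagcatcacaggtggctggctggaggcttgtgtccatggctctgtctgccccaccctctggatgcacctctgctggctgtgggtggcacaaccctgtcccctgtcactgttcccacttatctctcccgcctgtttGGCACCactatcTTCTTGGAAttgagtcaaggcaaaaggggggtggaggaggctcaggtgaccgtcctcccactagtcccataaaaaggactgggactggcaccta
Over 247 aligned bases the promoters were 91.9% identical, with 20 substitutions and no gap between the ends. One of them, counted 1 from the first base of the Hamp sequence shown, is G145A and lies within the BMP element, so Hamp holds GGCGCC and Hamp2 holds GGCACC. Both hold TTCTTGGAA. Searched on both strands, GGCGCC occurred in 9.59% of 32851 RefSeq promoter windows of this length and TTCTTGGAA, a form of TTCNNNGAA, in 0.365%. The wider TTCNNNGAA occurred in 7.02%. The palindromic glucocorticoid response element was in 0.387% of windows and the USF E-box CACGTG in 6.02%, and neither was found in these 2. Among the 10 genes, promoters of 7 were searched, in 11 windows. Apart from Hamp, GGCGCC was found in a window of Tfrc. Smad7 was left out of this search, and neither it nor any other member not among the 7 can be read as lacking GGCGCC. A match in such a window is a run of letters and does not show a bound site.

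Hamp2 was the member that changed with GDF15. Its normalised level (CPM, the count relative to library size after TMM scaling) was 35.0, 17.8, 46.3, 66.2 and 52.0 in Vehicle 1 to 5. It was 201.4, 211, 129, 141 and 82.3 in GDF15 1 to 5, and 44.3, 92.5, 46.6, 78.7 and 66.1 in PairFed 1 to 5. Each GDF15 library lay above each Vehicle library, while GDF15 5 lay below PairFed 2. Hamp2 thus rose 3.50-fold in GDF15 against Vehicle, a log2 fold change of 1.81 ± 0.35 (SE, n = 5 each), past the threshold of an adjusted p of 0.05 in edgeR's quasi-likelihood test (adjusted p = 0.0180). It was 1 of the 10 members called in this comparison, against 2.90% of all 12274 genes. Likewise 1 of the 10 had groups that did not overlap, against 3.99% of all genes. From this count nothing can be read about the 10 genes as a set.

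The Hamp2 call was close to the threshold. In edgeR's test the adjusted p was 0.0590 without Vehicle 1, 0.0515 without GDF15 1, 0.0552 without GDF15 2 and 0.0556 in a fit of the 2 groups alone, with log2 fold changes from 1.66 to 1.81. Against PairFed, Hamp2 was 2.32-fold higher in GDF15 (log2 fold change 1.22 ± 0.34, adjusted p = 0.145), which missed the threshold in edgeR's test and passed it in DESeq2's Wald test (adjusted p = 0.0256). Against Vehicle, Hamp2 in PairFed was at 0.59 ± 0.35 (adjusted p = 0.409 in edgeR's test), with a 95% interval from -0.09 to 1.27. The comparisons with Vehicle share the Vehicle libraries.

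**Figure D1:**
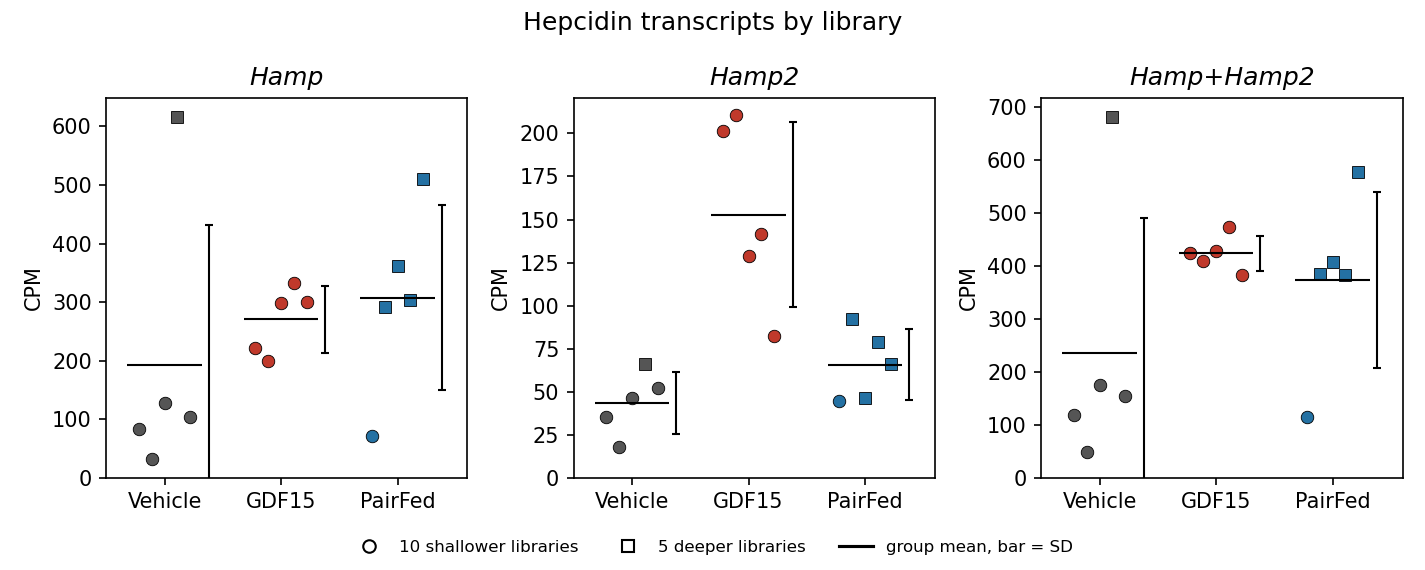
CPM of Hamp, of Hamp2 and of their sum in each library, by group; lines are group means and bars are SD over 5 libraries (the bar of Vehicle is cut off at 0 for Hamp and for the sum). Squares are the 5 libraries with the highest total counts. Each GDF15 library lies above each Vehicle library for Hamp2, and for Hamp the library Vehicle 4, at 615 CPM, lies above every other library.

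Hamp itself, the gene of the active hormone, varied widely within Vehicle and PairFed, and no difference between groups passed the test. Its level was 82.9, 31.7, 128, 615 and 103 CPM in Vehicle 1 to 5. It was 222, 199, 299, 332 and 301 CPM in GDF15 1 to 5, and 70.5, 291, 361, 304 and 510 CPM in PairFed 1 to 5. GDF15 was the most even group, at 270 ± 57.0 CPM (mean ± SD, n = 5), and 4 of the 5 Vehicle libraries lay below all GDF15 libraries. Vehicle 4 alone lay above them, with the highest Hamp level of the 15 livers. With it included, Hamp differed by 0.49 ± 0.68 log2 in GDF15 against Vehicle (adjusted p = 0.782 in edgeR's test), with an interval from -0.85 to 1.82. Without Vehicle 4 the difference was 1.64 ± 0.51 (adjusted p = 0.116), and that for PairFed against Vehicle went from 0.67 ± 0.68 (adjusted p = 0.655) to 1.83 ± 0.51 (adjusted p = 0.101). GDF15 and PairFed differed by -0.19 ± 0.68 in Hamp (adjusted p = 0.938), and the sign of this value turned without PairFed 5 and in other fits.

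The copies can share reads, because their transcripts are nearly the same. The first-listed coding transcript of GENCODE M21 has 410 bases for Hamp and 420 for Hamp2, and these were 94.6% identical over 410 aligned bases. Of the 31-base words of Hamp, 33.7% also occur in Hamp2, and the longest identical stretch was 87 bases. The summed level of both copies was 118, 49.5, 174, 682 and 155 CPM in Vehicle, 423, 409, 427, 473 and 383 CPM in GDF15, and 115, 384, 408, 383 and 576 CPM in PairFed. The 5 GDF15 livers thus lay close together, and the Vehicle livers and PairFed 1 lay below them, except Vehicle 4. With both copies counted as 1 gene, the log2 fold change was 0.84 ± 0.58 in GDF15 against Vehicle (adjusted p = 0.520 in edgeR's test), 0.66 ± 0.58 in PairFed against Vehicle (adjusted p = 0.5998) and 0.18 ± 0.58 in GDF15 against PairFed (adjusted p = 0.928). No member was called in that fit.

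The share of Hamp2 in all hepcidin counts needs no scaling between libraries. It was 29.7%, 36.0%, 26.6%, 9.70% and 33.6% in Vehicle 1 to 5. It was 47.6%, 51.5%, 30.1%, 29.9% and 21.5% in GDF15 1 to 5, and 38.6%, 24.1%, 11.4%, 20.5% and 11.46% in PairFed 1 to 5. Counting error was small beside this spread: the widest 95% Wilson interval, that of Vehicle 2 with 492 hepcidin counts, ran from 31.9% to 40.3%. The group means were 27.1% ± 10.4 in Vehicle, 36.1% ± 12.8 in GDF15 and 21.2% ± 11.2 in PairFed (SD, n = 5 each). GDF15 exceeded Vehicle by 9.01 percentage points (two-sided exact permutation p = 0.262, adjusted p = 0.393 over 3 comparisons) and PairFed by 14.9 (exact permutation p = 0.0873, adjusted p = 0.262). PairFed and Vehicle differed by -5.88 points (exact permutation p = 0.405, adjusted p = 0.405). The difference of GDF15 from Vehicle was 4.66 points without Vehicle 4 and 5.16 without GDF15 2, and 18.5 points from counts summed over each group, where Vehicle 4 gave most of the Vehicle counts. With single libraries left out, PairFed against Vehicle ran from -10.2 points (without Vehicle 4 or PairFed 1) to -3.43 (without PairFed 3). With 5 against 5 libraries the smallest p this test can give is 0.00794.

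Upstream of hepcidin, no member differed past the threshold. Bmp6, the ligand, is made by endothelial cells and was low in these whole livers: 1.68 to 3.75 CPM in Vehicle with a median of 2.51, 1.41 to 5.46 CPM in GDF15 with a median of 2.41, and 1.43 to 2.98 CPM in PairFed with a median of 2.49. These values rest on 11 to 52 counts per library. The groups overlapped fully, and the difference of GDF15 from Vehicle was 0.16 ± 0.31 log2 (adjusted p = 0.851 in edgeR's test), with an interval from -0.45 to 0.77. In bulk tissue, fewer cells of a type and less RNA per cell cannot be told apart. Beside it, the summed level of 12 of 12 endothelial markers ran from 169 to 283 CPM in Vehicle, 122 to 332 CPM in GDF15 and 211 to 367 CPM in PairFed, and its part in the Bmp6 values was not tested. No endothelial marker was at 0 in any group.

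Hfe and Tfr2, which sense transferrin iron at the hepatocyte surface, were the steadiest members of this arm. Hfe ran from 44.2 to 52.0 CPM in Vehicle, 47.7 to 53.8 in GDF15 and 46.0 to 52.7 in PairFed. Tfr2 ran from 317 to 373 CPM in Vehicle, 347 to 400 in GDF15 and 341 to 371 in PairFed. In GDF15 against Vehicle they differed by 0.11 ± 0.06 and 0.11 ± 0.06 log2 (adjusted p = 0.393 and 0.366 in edgeR's test). The 95% interval of each ran from -0.01 to 0.23.

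Id1 and Smad7 are direct targets of BMP-SMAD signalling, Id1 an inhibitor of transcription factors and Smad7 the pathway's own brake. Id1 was at 7.52, 2.51, 9.46, 15.38 and 4.71 CPM in Vehicle, at 3.96, 6.31, 13.7, 10.4 and 7.57 CPM in GDF15 and at 3.06, 1.59, 10.9, 10.8 and 10.1 CPM in PairFed. Smad7 was at 12.8, 6.54, 15.8, 22.6 and 8.99 CPM in Vehicle, at 10.3, 11.9, 15.7, 19.4 and 13.8 CPM in GDF15 and at 10.1, 12.8, 12.2, 19.3 and 18.1 CPM in PairFed. For both genes Vehicle 4, the library with the most Hamp, was the highest of the 15, and the groups overlapped throughout. GDF15 and Vehicle differed by 0.07 ± 0.55 log2 in Id1 (adjusted p = 0.967 in edgeR's test) and by 0.08 ± 0.30 in Smad7 (adjusted p = 0.927). The interval was wide for Id1, from -1.0 to 1.15, and ran from -0.50 to 0.67 for Smad7, and the sign of each turned when single libraries were left out.

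**Figure D2:**
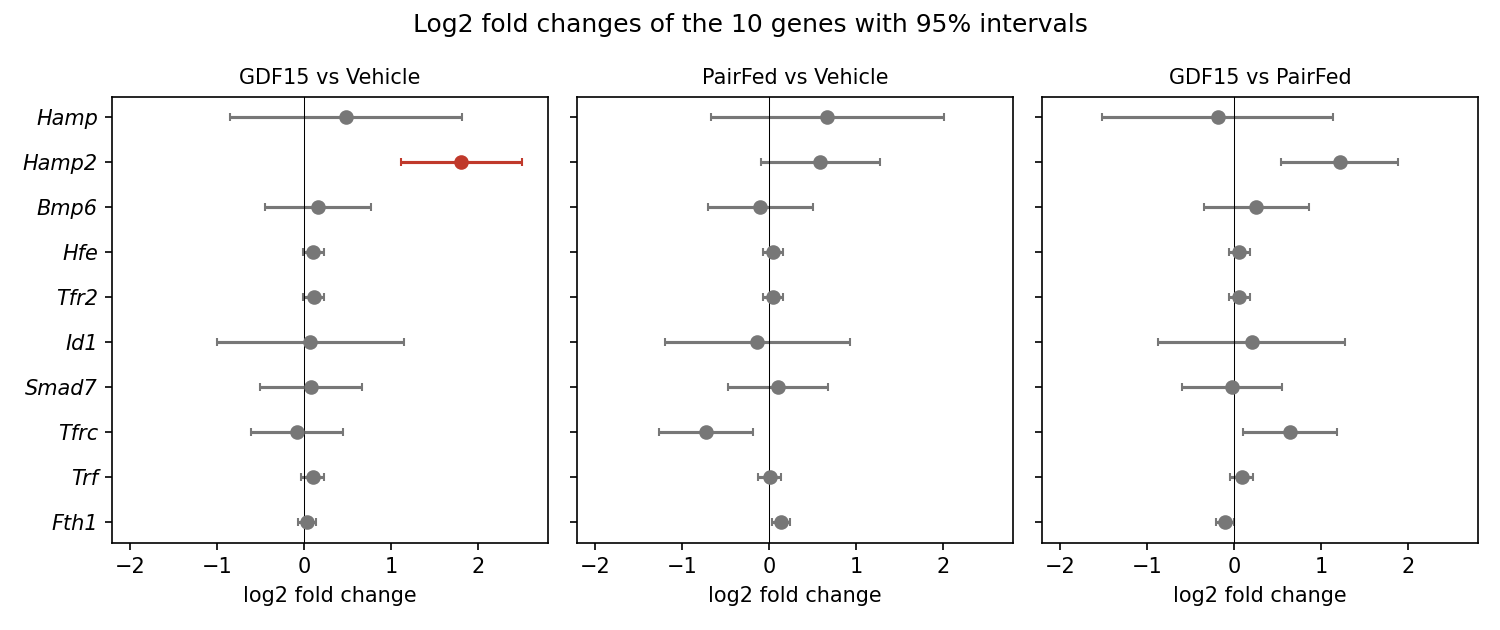
Log2 fold changes of the 10 genes in the 3 comparisons, from edgeR's quasi-likelihood fit over 12274 genes; bars are 95% intervals and red marks an adjusted p below 0.05. Hamp2 in GDF15 against Vehicle, at 1.81, is the red point, and Hfe, Tfr2, Trf and Fth1 have far narrower intervals than Hamp and Id1.

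Across livers, Hamp was higher where the BMP-SMAD target Smad7 was higher. Over the 15 libraries its log2 CPM went with that of Smad7 (Pearson r = 0.80, permutation p = 0.000280, adjusted p = 0.00476; Spearman rho = 0.77, permutation p = 0.00113, adjusted p = 0.00960, over 17 relations computed). Without the 2 libraries farthest from the median of Hamp, Vehicle 2 and PairFed 1, r was 0.63. With Id1, r was 0.58 (permutation p = 0.0225, adjusted p = 0.0955) and rho was 0.75 (permutation p = 0.00172, adjusted p = 0.00975), and r fell to 0.33 without those 2 libraries, so this relation rests in part on them. With the group means removed, r was 0.82 for Smad7 and 0.68 for Id1. Bmp6 showed no such relation to Hamp (r = -0.08, permutation p = 0.777; rho = 0.08, permutation p = 0.771).

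Hamp2 showed no relation to these targets past the adjusted threshold. Its r was 0.38 with Smad7 (permutation p = 0.166, adjusted p = 0.403) and 0.18 with Id1 (permutation p = 0.525, adjusted p = 0.812), with rho of 0.29 and 0.15 (permutation p = 0.288 and 0.594). Whether these differ from the values of Hamp was not tested. Between the copies r was 0.59 (permutation p = 0.0204, adjusted p = 0.0955) and rho was 0.43 (permutation p = 0.115, adjusted p = 0.393), and r was 0.27 without the same 2 libraries. All of these values come from the same 15 libraries and their common scaling.

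**Figure D3:**
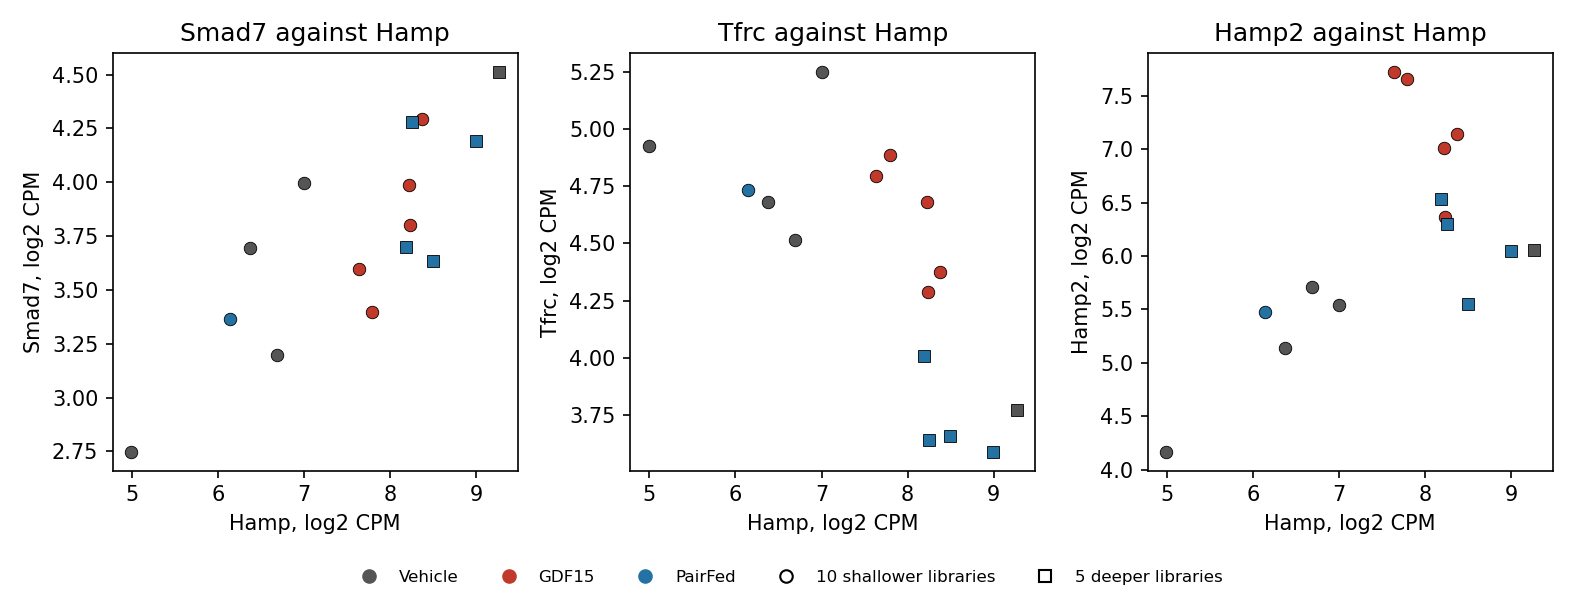
Smad7, Tfrc and Hamp2 plotted against Hamp, each as log2 CPM with 1 point per library; colours give the group and squares the 5 deeper libraries. Smad7 is higher where Hamp is higher (r = 0.80), Tfrc is lower (r = -0.70), and 4 of the 5 GDF15 libraries have more Hamp2 than every library of the other groups.

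Depth moved with Hamp and with the iron uptake gene Tfrc. The 15 libraries held 8551557 to 12994187 counts, and the largest gap in total count set 5 deeper libraries, Vehicle 4 and PairFed 2 to 5, apart from 10 shallower ones. Hamp ran from 291 to 615 CPM in the deeper and from 31.7 to 332 CPM in the shallower libraries. With log2 of the total count as a covariate, Hamp in GDF15 against Vehicle was at 1.31 ± 0.45 (adjusted p = 0.168 in edgeR's test), and Hamp2 at 1.90 ± 0.36 (adjusted p = 0.0215). In a fit of only the 10 shallower libraries, 5 of them GDF15 and 4 Vehicle, chosen after the data were seen, Hamp2 was at 2.01 ± 0.39 (adjusted p = 0.0622). Among those 10, r of Hamp was 0.78 with Smad7 (permutation p = 0.00764, adjusted p = 0.0649), 0.73 with Id1 (permutation p = 0.0174, adjusted p = 0.0985) and 0.87 with Hamp2 (permutation p = 0.00147, adjusted p = 0.0250). The Spearman values were 0.73, 0.73 and 0.77 (permutation p = 0.0204, 0.0200 and 0.0120), each with an adjusted p of 0.115, so none of the 3 relations passed by rank within these libraries. No label gives a batch, and the 5 deeper libraries are too few for such a value.

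Tfrc, the transferrin receptor through which cells take up iron, was lowest in the pair-fed livers. It was at 25.4, 30.2, 37.8, 13.5 and 22.7 CPM in Vehicle, at 29.4, 27.5, 25.4, 20.6 and 19.3 CPM in GDF15 and at 26.4, 15.9, 12.5, 12.3 and 11.9 CPM in PairFed. PairFed 1 lay with the other groups, and Vehicle 4 lay with the 4 low PairFed livers. PairFed differed from Vehicle by -0.72 ± 0.27 log2 (adjusted p = 0.203 in edgeR's test) and GDF15 from PairFed by 0.64 ± 0.28 (adjusted p = 0.336), and neither passed the threshold. GDF15 and Vehicle differed by -0.08 ± 0.27 (adjusted p = 0.922). The low livers were the deeper libraries: Tfrc ran from 11.9 to 15.9 CPM in these 5 and from 19.3 to 37.8 CPM in the other 10. Of all 12274 genes, 0.570% lay lower in those 5 than in the other 10 without overlap. With the total count as a covariate, Tfrc in PairFed against Vehicle was at -0.18 ± 0.21 (adjusted p = 0.800), so depth and pair feeding cannot be told apart for this gene.

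Tfrc ran against Hamp over the livers. Its r with Hamp was -0.70 (permutation p = 0.00346, adjusted p = 0.0294) and its rho was -0.80 (permutation p = 0.000580, adjusted p = 0.00960), and r was -0.71 without Vehicle 2 and PairFed 1. With the group means removed r was -0.81. Within the 10 shallower libraries the sign was the same but neither value passed the threshold, with r of -0.43 (permutation p = 0.217, adjusted p = 0.434) and rho of -0.55 (permutation p = 0.106, adjusted p = 0.390). Erythroid precursors are rich in Tfrc. The 6 of 9 erythroid markers in the table summed to 159 to 387 CPM in Vehicle, 118 to 590 CPM in GDF15 and 195 to 698 CPM in PairFed, and 2 of them were at 0 in all GDF15 libraries. Their part in the Tfrc values was not tested.

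Fth1, the heavy chain of ferritin, which stores iron, was slightly higher after pair feeding. It was at 2107, 2105, 2131, 1976 and 2107 CPM in Vehicle, at 2195, 2199, 2166, 2112 and 2014 CPM in GDF15 and at 2349, 2365, 2162, 2351 and 2253 CPM in PairFed. Each PairFed library lay above each Vehicle library, by 1.10-fold on average. In that comparison 1 of the 10 members had groups without overlap, against 3.92% of all genes. The log2 fold change of 0.14 ± 0.05 missed the threshold in edgeR's test (adjusted p = 0.202), which called 0 of the 10 members and 0.285% of all genes. DESeq2's Wald test called Fth1 (adjusted p = 0.0312). In edgeR's test 2 of the 10 members, Fth1 and Tfrc, had an unadjusted p under 0.05 here, near the 16.9% of all genes. In GDF15 against PairFed 0 of the 10 were called by edgeR, against 0.782% of all genes, 2 (Hamp2 and Tfrc) had an unadjusted p under 0.05, against 13.3% of all genes, and DESeq2 called 1, Hamp2. None of the 10 had groups without overlap there, against 2.86% of all genes. The shares of all genes that DESeq2's test called are not given here, so its calls cannot be set against them.

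Trf, the plasma iron carrier transferrin, was one of the most abundant messages. It ran from 17202 to 19536 CPM in Vehicle, 18081 to 21956 in GDF15 and 17801 to 19843 in PairFed, and the groups overlapped. GDF15 differed from Vehicle by 0.10 ± 0.07 log2 (adjusted p = 0.495 in edgeR's test). Per length of its longest coding transcript, the median Vehicle level was 7156 CPM per kilobase for Trf, 1410 for Fth1 and 251 for Hamp. On the same scale it was 113 for Tfr2, 106 for Hamp2, 13.1 for Hfe and between 0.70 and 6.48 for Id1, Tfrc, Smad7 and Bmp6. In this order Hamp, Tfr2 and Hamp2 were not apart beyond the spread of Hamp over the Vehicle libraries, nor were Id1, Tfrc and Smad7 beyond that of Id1.

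**Figure D4:**
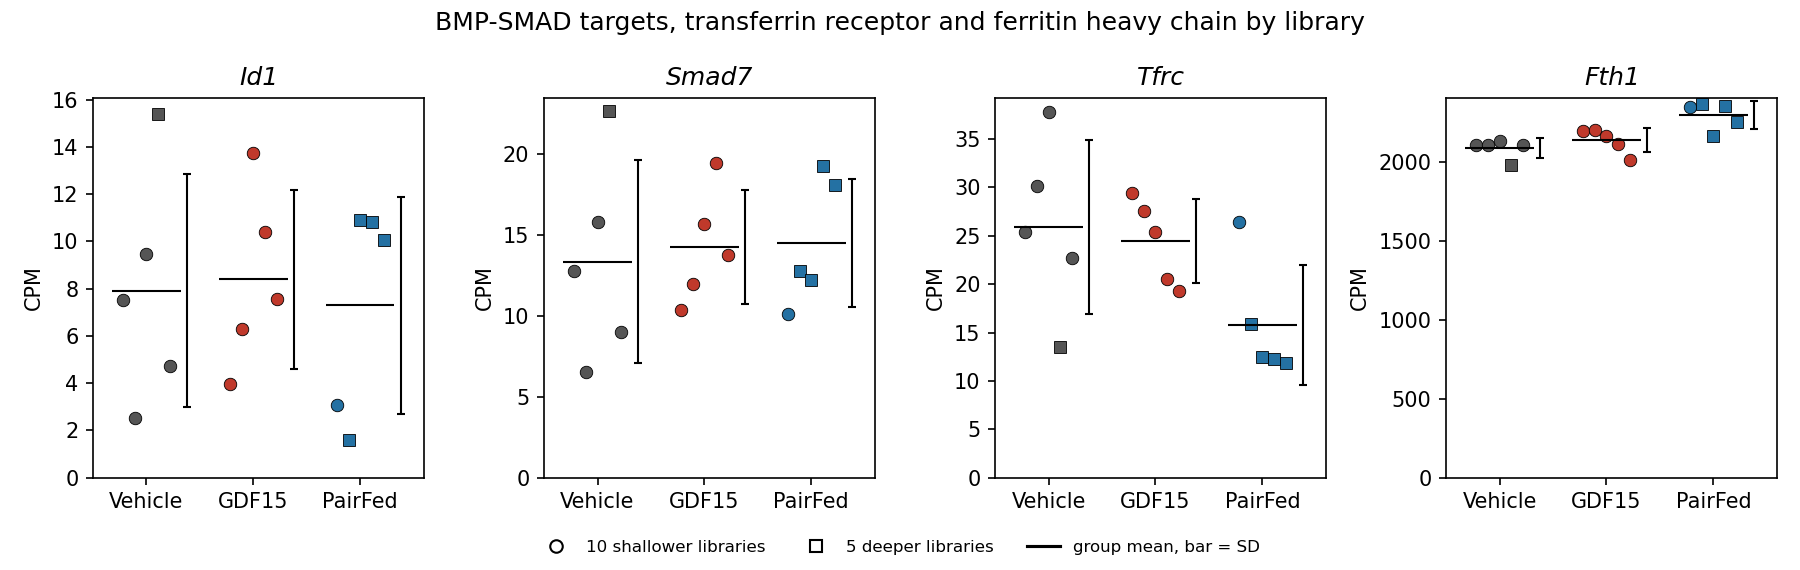
CPM of Id1, Smad7, Tfrc and Fth1 in each library, by group; lines are group means, bars are SD over 5 libraries and squares are the 5 deeper libraries. Tfrc is lowest, at 11.9 to 15.9 CPM, in the squares, and Fth1 is higher in each PairFed library than in each Vehicle library.

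Tfrc and Fth1 are the classic pair read by the iron regulatory proteins, and their elements are shown for that reason. The search was for a CAGTGN loop closed by 5 base pairs (G-T pairs allowed), with an unpaired C just before the stem, in GENCODE M21 transcripts of the GRCm38 build. Capitals mark the loop. Fth1 holds 1 such hairpin in its 5′ UTR, at chr19:9982733-9982759, plus strand. Tfrc holds 4 in its 3′ UTR, between 32631220 and 32631737 of chromosome 16, plus strand.
Fth1 5′ UTR: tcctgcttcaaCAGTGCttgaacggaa
Tfrc 3′ UTR, site 1: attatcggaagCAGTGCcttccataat
Tfrc 3′ UTR, site 2: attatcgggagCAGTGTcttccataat
Tfrc 3′ UTR, site 3: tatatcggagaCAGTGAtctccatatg
Tfrc 3′ UTR, site 4: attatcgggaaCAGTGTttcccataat
Of 6507 genes with a 5′ UTR of at least 224 bases, 0.123% held such a hairpin in the first 224. Of 2690 genes with a 3′ UTR of at least 2461 bases, 1.26% held 1 or more in the first 2461. The 1 gene that held 4 or more was Tfrc itself. Fth1 is counted in the first of these shares and Tfrc in the second. In PairFed against Vehicle the fold changes of Tfrc and Fth1 had opposite signs, and neither passed edgeR's threshold. With the total count as a covariate, Tfrc was at -0.18 log2 there (adjusted p = 0.800 in edgeR's test). The Fth1 element acts on translation, which transcript counts do not measure. Whether these elements had a part in either value was not tested.

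The wider lists place these values among other genes of the pathway. Of 23 tested genes of BMP-SMAD control (25 listed), 1 rose in GDF15 against Vehicle and 0 fell, with a median of 0.05 log2 against -0.00 over all genes. The list holds some of the member genes but neither Hamp nor Hamp2. Of all genes tested, 2.02% rose and 0.880% fell in this comparison. The gene that rose was Furin, the protease that cuts prohepcidin and hemojuvelin, from 293 ± 21.0 to 363 ± 15.27 CPM (mean ± SD, n = 5 each), or 0.31 ± 0.06 log2 (adjusted p = 0.0106 in edgeR's test). In PairFed, Furin was at 347 ± 18.1 CPM, also above each Vehicle library, with a difference of 0.24 ± 0.06 that missed the threshold (adjusted p = 0.0781). Hjv, the co-receptor hemojuvelin, differed between GDF15 and Vehicle by 0.05 ± 0.08 (adjusted p = 0.780), and Tmprss6, the protease that removes it, by 0.10 ± 0.06 (adjusted p = 0.457). Bmp2, the other endothelial ligand, was at -0.05 ± 0.28 (adjusted p = 0.951).

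Further BMP-SMAD targets did not pass the test. In GDF15 against Vehicle, Id2 was at -0.81 ± 0.26 log2 with groups that did not overlap, Id3 at -0.35 ± 0.29, Smad6 at -0.02 ± 0.17 and Atoh8 at 0.30 ± 0.23. Their adjusted p in edgeR's test were 0.120, 0.593, 0.964 and 0.554. Erfe encodes an erythroid hormone that represses hepcidin, and with 6 counts in the whole table it fell below the filter. No gene of the list was called by edgeR in PairFed against Vehicle or in GDF15 against PairFed, with 3 and 2 of the 23 at an unadjusted p under 0.05, against 16.9% and 13.3% of all genes.

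The list of interleukin 6 and STAT3 signalling and other control of hepcidin had a median of 0.06 log2 in GDF15 against Vehicle. Of its 21 tested genes, 2 rose there (2.02% of all genes) and 0 fell (0.880%). They were the receptors of inflammatory cytokines: Il6ra, the interleukin 6 receptor, at 40.7 ± 10.7 CPM in Vehicle and 90.8 ± 15.8 CPM in GDF15, and Il1r1, the interleukin 1 receptor, at 27.7 ± 7.02 and 56.8 ± 18.2 CPM. Il6ra rose by 1.15 ± 0.17 log2 (adjusted p = 0.00259 in edgeR's test) and Il1r1 by 1.02 ± 0.22 (adjusted p = 0.0250). Both also rose against PairFed, by 0.97 ± 0.17 (adjusted p = 0.0190) and 1.10 ± 0.22 (adjusted p = 0.0378), where 0.562% of all genes rose. None of the 21 was called in PairFed against Vehicle by edgeR, with 2 at an unadjusted p under 0.05, against 16.9% of all genes. Il6, the gene of interleukin 6, was not in the count table. In GDF15 against Vehicle 7 of the 21 had an unadjusted p under 0.05, against 16.7% of all genes. The genes behind these receptors did not pass: Stat3 was at 0.07 ± 0.10 (adjusted p = 0.765), its target Socs3 at 1.18 ± 0.52 (adjusted p = 0.275) and Creb3l3, a hepatocyte factor that can raise hepcidin, at 0.13 ± 0.09 (adjusted p = 0.463).

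Among 18 tested genes of iron uptake, storage and export, 2 rose in GDF15 against Vehicle (2.02% of all genes) and 0 fell (0.880%). The median was -0.00. Slc39a14, a transporter for iron outside transferrin, rose from 185 ± 22.7 to 247 ± 31.4 CPM, or by 0.42 ± 0.11 log2 (adjusted p = 0.0439 in edgeR's test). Ncoa4, which delivers ferritin for breakdown, rose by 0.25 ± 0.07 (adjusted p = 0.0488). Slc40a1, the gene of ferroportin, was at -0.09 ± 0.10 (adjusted p = 0.717), Ftl1, the ferritin light chain, at 0.14 ± 0.07 (adjusted p = 0.340) and Cp, the ferroxidase ceruloplasmin, at -0.10 ± 0.06 (adjusted p = 0.474). Steap4, a ferrireductase, was at 0.09 ± 0.15 (adjusted p = 0.837). Lcn2, which binds bacterial iron carriers, was at -0.50 ± 0.16 (adjusted p = 0.104).

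In PairFed against Vehicle 0 of these 18 were called in edgeR's test, where 9 had an unadjusted p under 0.05 (16.9% of all genes) and 4 had groups without overlap (3.92% of all genes). Slc39a14 and Ncoa4 were at 0.30 ± 0.11 and 0.16 ± 0.07 log2 there (adjusted p = 0.170 and 0.223 in edgeR's test). In GDF15 against PairFed these 2 genes were at 0.12 ± 0.11 and 0.09 ± 0.07 (adjusted p = 0.683 and 0.606). Ftl1 was higher in each PairFed library than in each Vehicle library, at 4782 ± 242 against 4008 ± 294 CPM and 0.25 ± 0.07 log2 (adjusted p = 0.104). Slc11a2, the divalent metal transporter, whose transcript can also carry an iron-responsive element, was lower in each, at 36.3 ± 3.70 against 48.2 ± 6.25 CPM and -0.41 ± 0.10 log2 (adjusted p = 0.0761). As with Tfrc, 4 of the 5 PairFed libraries and 1 Vehicle library were the deeper ones.

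Of 12 genes of iron sensing or with iron-responsive elements, 1 rose in GDF15 against Vehicle, where 2.02% of all genes rose. It was Epas1, the hypoxia factor HIF-2α, at 0.47 ± 0.10 (adjusted p = 0.0167 in edgeR's test). Epas1 was at 0.39 ± 0.10 in PairFed against Vehicle (adjusted p = 0.0797) and at 0.08 ± 0.10 in GDF15 against PairFed (adjusted p = 0.782). In GDF15 against Vehicle Aco1 and Ireb2, the genes of the iron regulatory proteins, were at 0.15 ± 0.06 and 0.23 ± 0.09 (adjusted p = 0.150 and 0.184). Of the 12, Tfrc among them, 5 had an unadjusted p under 0.05 in GDF15 against Vehicle and 3 had groups without overlap (3.99% of all genes). In PairFed against Vehicle 0 were called by edgeR, 6 had such a p and 4 had groups without overlap (3.92% of all genes). Of 25 genes of heme and mitochondrial iron none was called by edgeR in any of the 3 comparisons, with 6, 5 and 1 at an unadjusted p under 0.05. The shares of all genes at that p were 16.7% in GDF15 against Vehicle, 16.9% in PairFed against Vehicle and 13.3% in GDF15 against PairFed. Among them Hmox1, which breaks down heme, was at -0.05 ± 0.15 in GDF15 against Vehicle (adjusted p = 0.907), and the heme and hemoglobin scavengers Hpx and Hp at -0.18 ± 0.07 and -0.15 ± 0.08 (adjusted p = 0.204 and 0.391).

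Other gene lists were looked at beside the rise of Hamp2, and some of them moved with it. The summed level of 12 glucocorticoid-induced genes was 2089 to 4708 CPM in Vehicle, 5224 to 11893 CPM in GDF15 and 4039 to 7747 CPM in PairFed. Pck1 and Tat made up most of it, at means of 1698 and 889 CPM in Vehicle, 4204 and 2817 CPM in GDF15 and 3096 and 1530 CPM in PairFed. By edgeR's test 8 of the 12 rose in GDF15 against Vehicle, where 2.02% of all genes rose. Tat was among these 8 and Pck1 was not. None of the 12 was called in PairFed against Vehicle, against 0.285% of all genes. Tat is also listed among the hepatocyte markers. The 16 immediate-early genes respond to stimuli and handling. Their summed level was 453 to 910 CPM in Vehicle, 641 to 2247 CPM in GDF15 and 726 to 1308 CPM in PairFed. In GDF15 against Vehicle edgeR's test called 0 of the 16, against 2.90% of all genes. There 13 had an unadjusted p under 0.05 (16.7% of all genes) and 0 had groups without overlap (3.99%). When the score of these genes was added to the model, Hamp2 was at 1.68 ± 0.47 in GDF15 against Vehicle (adjusted p = 0.412 in edgeR's test). The part of the glucocorticoid-induced genes in the Hamp2 result was not tested. The 10 hepatocyte markers summed to 88597 to 110487 CPM in Vehicle and 103627 to 133236 CPM in GDF15, and 11 Kupffer cell markers to 469 to 667 and 303 to 675 CPM. The 8 monocyte and T cell markers moved the other way, with sums of 14.98 to 23.9 CPM in Vehicle, 7.60 to 13.2 CPM in GDF15 and 5.72 to 15.9 CPM in PairFed. All 6 of them that were tested had negative log2 fold changes in GDF15 against Vehicle (median -1.10), and 2 fell, against 0.880% of all genes. They were Cd8a and Ly6c2, which fell in edgeR's test by 2.03 ± 0.43 (adjusted p = 0.0172) and 1.38 ± 0.33 (adjusted p = 0.0311) on the log2 scale. Both rest on few counts, with 1 to 5 of Cd8a and 3 to 10 of Ly6c2 per GDF15 library. No marker of these 3 cell lists was at 0 throughout a group, and their part in the Hamp2 result was not tested.

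The genes with a pattern most like that of Hamp2 over the 15 libraries, by Pearson's r of log2 CPM among the 11246 genes whose log2 CPM averaged 1 or more, were Papss2 (0.91), Rnf217 (0.90), Ass1 (0.88), Tm6sf2 (0.87) and Acy1 (0.87). Papss2 makes the sulfate donor of the cell and Ass1 is an enzyme of the urea cycle. Their log2 fold changes in GDF15 against Vehicle were 0.37 to 0.75, each less than that of Hamp2; since they were picked for following Hamp2 with its group difference left in, a difference between these groups was largely fixed by the choice. The genes most like Hamp were 2310033P09Rik (0.87), Cuedc2 (0.85), Trappc6b (0.84), Tmem63a (0.82) and Btbd2 (0.81). The 2 sets have no gene in common. Usf2, whose nearer end lies 1218 bases from Hamp and which was looked at for its position, was at 0.15 ± 0.08 in GDF15 against Vehicle (adjusted p = 0.332).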

How the data were processed

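Liver RNA of 15 mice was sequenced from libraries made with a directional kit, per the labels' protocols. The authors deposited 1 table of estimated counts by gene symbol, as whole numbers and not scaled to depth. Salmon and DESeq2 (no versions) and the build mm10 are named in the submitters' processing notes; the transcript set is not given in the sources used here. Every gene listed had a sum of at least 5. Columns were assigned to groups by name. Libraries are numbered by column order, as names only, and no number ties an animal of one group to another; replicates are taken as separate animals, though no label ties a library to an animal.

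Genes were filtered with filterByExpr (count of 10, total of 15), which kept 12274 genes with 99.9% of the counts, and scaled by TMM. All 15 libraries were fitted in 1 model with the robust quasi-likelihood test of edgeR 4.0.16 (R 4.3.3), with Benjamini-Hochberg adjustment over all tested genes of each comparison. SE were derived from the F statistic, and 95% intervals are normal. "Rose" and "fell" mean an adjusted p below 0.05. Relations across libraries used log2 CPM (prior count of 2) with two-sided tests of 100000 permutations; the hepcidin share was tested by exact permutation. Wilson intervals cover counting error only.

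The test was tried on simulated counts (12191 genes) for GDF15 against Vehicle: 42.4% of 0.5 log2 changes were found, 78.5% of those of 1 and 98.6% of those of 2, with 4 false calls among 151. Alternatives were DESeq2 size factors or upper-quartile scaling, no filter or 10 CPM in 5 libraries, limma-voom (limma 3.58.1), DESeq2's Wald test (version 1.42.0), the 2 groups alone, both hepcidin copies summed, covariates for depth and immediate-early genes, and each library left out. A fit of only the 10 shallower libraries was added after the data were seen.

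The members, lists and tests were chosen with earlier results of these data known. The genes named were the 10 members, up to 4 called genes of each list in each comparison, 22 further iron genes fixed by name, and the 5 genes most like each hepcidin copy. Not all are printed, and Usf2, Erfe, Il6, Pck1 and Slc11a2 were named outside this rule. RefSeq positions and promoters are of GRCm38.p6. Alignments were made with Biopython 1.88.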

Additional observations from a re-analysis of the deposited data

Results flagged for a closer look

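Of the 30 sets of 5 values (10 genes in 3 groups), 3 held a library whose gap to its nearest neighbour was above Dixon's 95% critical value; chance alone does this in about 1 in 20 groups. Hamp in Vehicle 4, at 615 CPM, stood far above the next Vehicle library, at 128 CPM. Fth1 in the same library, at 1976 CPM, lay below the next, at 2105 CPM. Tfrc in PairFed 1, at 26.4 CPM, lay above the next PairFed library, at 15.9 CPM. Vehicle 4 was the 1 deeper library of its group, and PairFed 1 the 1 shallower library of its own.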

How the results depend on the processing

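The rise of Hamp2 in GDF15 against Vehicle kept its direction under all alternatives run, from 1.61 to 2.01 log2. The count of 1 called member there became 0 in a fit of the 2 groups alone, with the copies summed (where Hamp2 is not a gene of its own), with the immediate-early covariate and in the 10 shallower libraries, and was 0 to 1 when single libraries were left out. With DESeq2's Wald test, 1 member was called in PairFed against Vehicle and 1 in GDF15 against PairFed, in place of 0. The shares of all genes called by that test are not given here. The cause of these moves was not tested. No paired analysis was possible because no label ties an animal of one group to an animal of another.

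The signs that turned belonged to members that were not called. In GDF15 against Vehicle, Tfrc was at 0.00056 with limma-voom and Fth1 at -0.0048 with upper-quartile scaling. In PairFed against Vehicle, the covariate of total count gave -0.21 for Hamp, 0.13 for Bmp6 and -0.36 for Smad7, the immediate-early covariate gave 0.43 for Id1, and Trf was at -0.017 with upper-quartile scaling and -0.012 with the filter of 10 CPM. In GDF15 against PairFed, Hamp was at 0.043 with limma-voom, 1.52 with the total count and 0.047 with the immediate-early covariate, Smad7 at 0.59 and 0.15 with these 2 covariates, and Hfe at -0.025 with the total count. From counts summed over a group, the Hamp2 share of PairFed exceeded that of Vehicle by 0.555 points.

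With single libraries left out, GDF15 against Vehicle ran from -0.21 to 0.32 for Bmp6, -0.17 to 0.49 for Id1, -0.088 to 0.37 for Smad7 and -0.26 to 0.094 for Tfrc. PairFed against Vehicle ran from -0.24 to 0.065 for Bmp6, -0.35 to 0.28 for Id1, -0.064 to 0.39 for Smad7 and -0.019 to 0.027 for Trf. GDF15 against PairFed ran from -0.44 to 0.073 for Hamp, -0.11 to 0.42 for Bmp6, -0.053 to 0.39 for Id1 and -0.16 to 0.10 for Smad7. Depth limits Bmp6 most, with as few as 11 counts in a library.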
